A study of Mus musculus with 8 samples.

Results

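Genes of the synaptic vesicle and its release machinery were followed in primary cultures of mouse cerebellar neurons, with and without thyroid hormone. A list of 39 genes was read from the array by gene symbol, and each gene was represented by its brightest probe-set over the 8 arrays. All 39 genes had a probe-set, among 18193 genes of the array with one. A filter on dim probe-sets kept 31 of them, among 10194 genes kept. The 8 genes that did not pass were Vamp1, Syt5, Doc2b, Sv2c, Rab3b, Bsn, Unc13a and Slc17a7. Cultures came from pooled cerebella of newborn wild-type mice (P4 to P7 according to the labels, P1 to P4 according to the methods) and were kept for 48 h in serum-free medium. They then received 0.1 µM T3, the active thyroid hormone, for 6, 16, 24 or 48 h, or were left untreated for the same hours. Each of the 8 conditions was measured once, on 1 Affymetrix array, and values are array signals on a linear scale.

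Neurons release transmitter when a filled vesicle docks at the active zone, is primed, and fuses with the plasma membrane as calcium enters. Fusion is driven by SNARE proteins on the vesicle and on the target membrane, which zip together under the control of complexins, synaptotagmins and priming factors. Granule cells, the most abundant neurons of the cerebellum, use glutamate, and build this machinery as they leave the cell cycle and grow axons.

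The 2 arrays of a time point came from 1 batch of cells, so hours and batch cannot be told apart anywhere below. The p-values over time measure only how far the paired arrays of a time point spread around the fit. Klf9, a known T3 target, went with the treatment labels. Its signal was 3100, 2737, 3131 and 2268 on the T3 arrays of 6, 16, 24 and 48 h, against 1220, 1508, 1235 and 1498 on the untreated arrays. All 4 T3 values lay above all 4 untreated values. The untreated array of 24 h stood apart. There, the mean level of 9 astrocyte and Bergmann glia markers was 1.61 log2 units above their mean over all arrays, while on the other arrays it lay between -0.36 and -0.09.

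Most release genes were high at 6 and 24 h and low at 16 and 48 h. In 25 of the 31 genes, all 4 arrays of 6 and 24 h were above all 4 arrays of 16 and 48 h, a pattern seen in 15.1% of all 18015 probe-sets kept. The 6 others, by their brightest probe-set, were Snap47, Vamp2, Nsf, Dnajc5, Rab3a and Unc13b. A second probe-set of Rab3a, however, had the pattern, at 211.5 or above on all arrays of 6 and 24 h and at 86.8 or below on all of 16 and 48 h. A difference among the 4 time points passed the moderated F test of limma at an adjusted p of 0.05 in 28 of 31 genes, against 47.3% of all probe-sets. The 3 that did not pass were Snap47, Vamp2 and Nsf. Among the time points left without both 24 h arrays, 30 passed, against 63.2% of all. The signal was highest on the untreated 24 h array for 24 genes and lowest on the untreated 48 h array for 23.

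**Figure D1:**
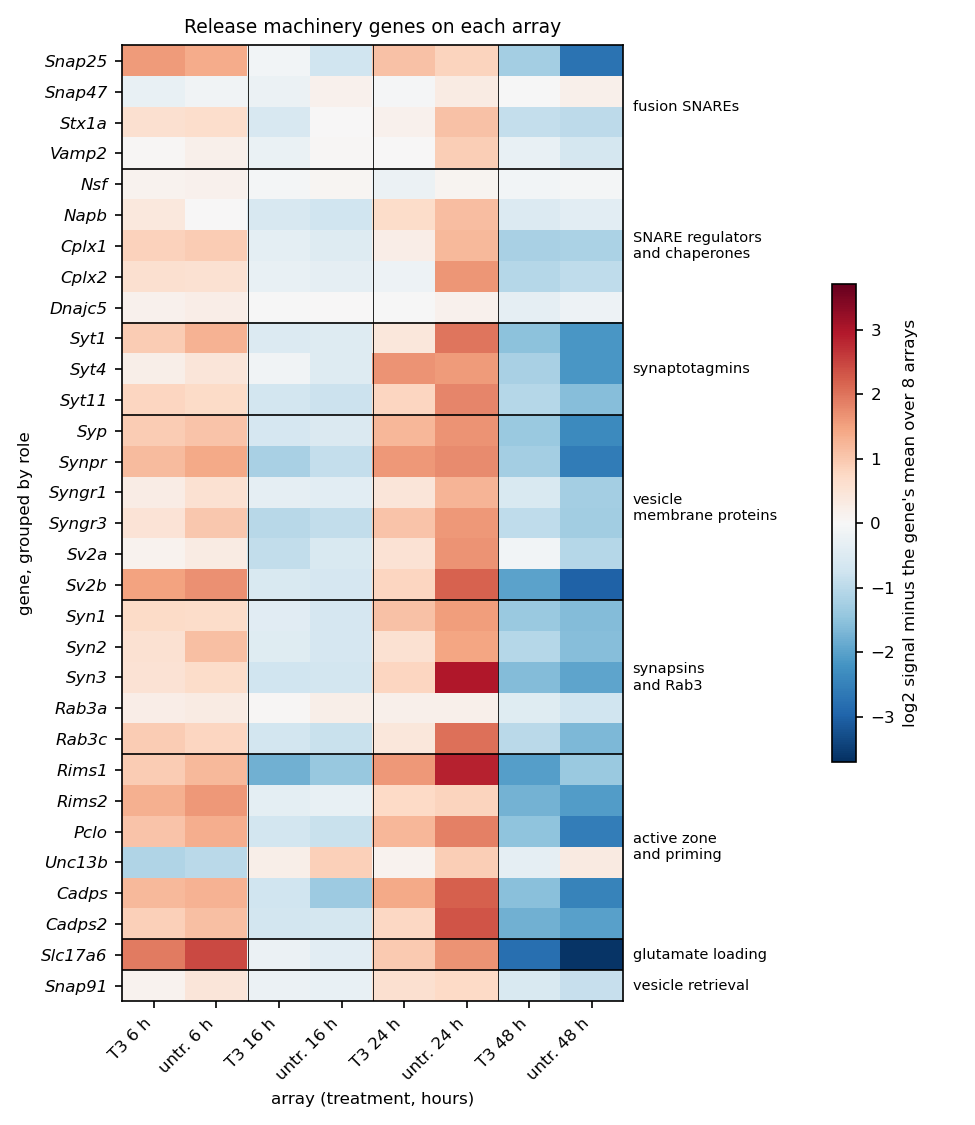
Log2 signal of the 31 release machinery genes kept (rows, grouped by role) on the 8 arrays (columns, T3 left of untreated at each time point), minus the mean of each gene over the 8 arrays. Red columns at 6 and 24 h alternate with blue columns at 16 and 48 h in most rows, and the pale rows of Snap47, Nsf and Dnajc5 varied by 1.3- to 1.5-fold.

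Between 6 and 16 h, 20 of the 31 genes fell (13.4% of all probe-sets did) and 1, Unc13b, rose (16.7% of all). The median change was -1.31 on the log2 scale, against -0.03 over all probe-sets. Between 16 and 24 h, 23 genes rose and none fell, where 7.16% of all probe-sets rose. The median was 1.63, against -0.04. With no filter on dim probe-sets, which adds many of them to the adjustment, this rise was called in none of the 39 genes (smallest adjusted p = 0.0542) and the fall between 6 and 16 h in 8. Between 24 and 48 h, 28 genes fell, against 16.0% of all, with a median of -2.56. Set against 6 h, the arrays of 48 h were lower in 25 genes (26.2% of all) and higher in 2, Snap47 and Unc13b (23.1% of all), and the median was -2.07, against -0.10 over all.

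The same order was present within each treatment, where every step compares 1 array with 1 array and has no test. On the T3 arrays alone, 19 of 31 genes were more than 2-fold lower at 16 h than at 6 h (6.04% of all probe-sets). On these arrays 18 genes were more than 2-fold higher at 24 h than at 16 h (4.4%), and 23 were more than 2-fold lower at 48 h than at 24 h (8.52%). On the untreated arrays the counts were 18 (8.45%), 25 (9.71%) and 26 (13.3%). Without the untreated 24 h array, 1 array is left at 24 h. Steps to and from 24 h then have no spread of their own, so only sizes are given. The rise to 24 h then ran from -0.19 (Unc13b) to 3.42 (Rims1), against -0.05 (Nsf) to 3.83 (Rims1) with all arrays. In Snap25, Syt1, Syngr1, Sv2a, Sv2b, Syn2, Rab3c and Slc17a6, it was 0.74 to 1.25, against 1.22 to 2.09. In Cplx2 it was 0.12, against 1.03, in Vamp2 0.15, against 0.58, and in Stx1a 0.56, against 0.92. The fall to 48 h was -0.50 for Vamp2, -0.29 for Dnajc5 and -1.04 for Sv2a, against -0.93, -0.32 and -1.68. Without both 24 h arrays, 24 genes fell between 6 and 16 h (23.4% of all probe-sets). In that fit 28 genes were lower at 48 h than at 6 h (34.2%). A total of 26 further probe-sets of 17 of these genes were kept. Their sign was that of the brightest probe-set in 25, 23, 25 and 25 of 26 for 16 h over 6 h, 24 h over 16 h, 48 h over 24 h and 48 h over 6 h. They stood on the same side of the threshold in 20, 17, 21 and 20 of 26.

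The SNARE proteins themselves did not all follow the pattern. Snap25 encodes the target-membrane SNARE that, with syntaxin 1 and synaptobrevin, forms the fusion complex. Its signal was 726, 228, 517 and 102 on the T3 arrays of 6, 16, 24 and 48 h, against 632, 146, 437 and 36.7 on the untreated arrays. Both arrays of 6 h were the highest, and the untreated 48 h array was the lowest. The change at 48 h over 6 h was -3.47 ± 0.30 (log2, SE, limma, adjusted p = 0.000189). Stx1a, its syntaxin partner, fell by 1.55 ± 0.26 over the same span (adjusted p = 0.00255). Vamp2, the synaptobrevin of the vesicle, did not pass the test there (-0.58 ± 0.27, adjusted p = 0.113, or 0.0174 without the untreated 24 h array) but fell by 0.93 ± 0.27 between 24 and 48 h (adjusted p = 0.0379). A second, dimmer probe-set of Vamp2 gave the reverse, with a fall at 48 h over 6 h (-1.63 ± 0.39, adjusted p = 0.0107) and none called between 24 and 48 h (-0.33 ± 0.39, adjusted p = 0.55). Snap47, a relative of Snap25 found on internal membranes, lay between 1529 and 1852 on the T3 arrays and between 1704 and 2316 on the untreated arrays. It rose by 0.30 ± 0.09 at 48 h over 6 h (adjusted p = 0.0308). Vamp1 stayed at or below 8.5 on the T3 arrays and 12.7 on the untreated arrays.

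Among the factors that act on SNARE complexes, the complexins moved and the disassembly enzyme did not pass any test over time. Nsf, the ATPase that takes used complexes apart, had signals of 237 to 299.7 on the T3 arrays and 264 to 308.5 on the untreated arrays. Its ratio of highest to lowest array, 1.3, was the smallest of the 31. Dnajc5, the cysteine string protein that keeps Snap25 folded, fell by 0.45 ± 0.10 at 48 h over 6 h (adjusted p = 0.00927). Another probe-set of it, however, fell by 1.38 ± 0.23 between 16 and 24 h, where the brightest one gave 0.08 ± 0.10. Cplx1, which binds the assembled complex, fell by 2.07 ± 0.26 at 48 h over 6 h (adjusted p = 0.000687). Cplx2 was at 296, 165, 175 and 94.9 on the T3 arrays, against 291, 157, 612 and 102 on the untreated arrays. Only the arrays of 24 h differed clearly by treatment, and the peak at 24 h was present on the untreated array alone. Napb, the adaptor that brings Nsf to the complex, rose by 1.59 ± 0.24 at 24 h over 16 h (adjusted p = 0.00922).

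The synaptotagmins followed the pattern with wide swings. Syt1, the calcium sensor of fast release, was at 452, 167, 314 and 82.1 on the T3 arrays of 6, 16, 24 and 48 h, against 571, 170, 925 and 52.8 on the untreated arrays. The untreated 24 h array carried the highest value, 17.5 times the lowest. Syt1 rose by 1.68 ± 0.44 at 24 h over 16 h (adjusted p = 0.0431) and fell by 3.03 ± 0.44 at 48 h over 24 h (adjusted p = 0.00296). Without the untreated 24 h array, which leaves 1 array and no spread at 24 h, the rise was 0.85 and the fall -2.21. Syt4 and Syt11, relatives that do not act as calcium sensors of this kind, also fell in that last step (-3.29 ± 0.28 and -2.60 ± 0.33). Syt5 lay between 3.9 and 26.2 on the T3 arrays and between 2.2 and 38.8 on the untreated arrays, and Doc2b, another calcium-binding release factor, between 3.7 and 59.1 and between 10.3 and 50.6.

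By their brightest probe-sets, all 6 vesicle membrane proteins kept rose at 24 h over 16 h and fell at 48 h over 24 h. Without the untreated 24 h array, which leaves 1 array and no spread at 24 h, the rise ran from 0.74 (Syngr1) to 2.52 (Synpr). The fall then ran from -3.41 (Synpr) to -1.04 (Sv2a). Syp, synaptophysin, an abundant protein of the vesicle membrane, was at 238, 79.5, 287 and 47.7 on the T3 arrays, against 256, 85.9, 386 and 24.2 on the untreated arrays. The arrays of 6 and 24 h did not overlap those of 16 and 48 h. Its relative Synpr fell by 3.60 ± 0.39 at 48 h over 24 h (adjusted p = 0.00116). Sv2b, a vesicle glycoprotein, was at 180, 43.1, 111 and 16.3 on the T3 arrays, against 204, 41.4, 289 and 8.1 on the untreated arrays, and fell by 4.06 ± 0.48 at 48 h over 6 h (adjusted p = 0.000557). Sv2a, the site where the antiepileptic drug levetiracetam binds, did not pass that test (-0.80 ± 0.42, adjusted p = 0.155). The synaptogyrins Syngr1 (-1.33 ± 0.33) and Syngr3 (-1.87 ± 0.27) passed it. A second probe-set of Syngr1 passed neither this test (-0.30 ± 0.22, adjusted p = 0.283) nor those for the rise to 24 h (0.42 ± 0.22, adjusted p = 0.223) and the fall after it (-0.10 ± 0.22, adjusted p = 0.762). Sv2c did not exceed 12.2 on a T3 array or 10.1 on an untreated one.

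Synapsins tether vesicles in the reserve pool, and Rab3 proteins are small GTPases that guide them to the active zone. Syn1 fell at 48 h over 6 h (-2.18 ± 0.25, adjusted p = 0.000544), and so did Syn2 (-2.14 ± 0.34, adjusted p = 0.00182) and Syn3 (-2.36 ± 0.55, adjusted p = 0.0103). Rab3c fell by 2.19 ± 0.49 (adjusted p = 0.0085). Rab3a changed less by its brightest probe-set, with signals of 654, 567, 632 and 409 on the T3 arrays, against 686, 640, 637 and 332 on the untreated arrays. Only the arrays of 48 h were set apart there, and the change at 48 h over 6 h was -0.86 ± 0.15 (adjusted p = 0.00287). The second probe-set of Rab3a was at 254, 86.8, 211.5 and 45.2 on the T3 arrays, against 309, 82.0, 352 and 28.1 on the untreated arrays. It fell by 2.97 ± 0.31 over the same span (adjusted p = 0.000369), so the size of the change in Rab3a depends on the probe-set. Rab3b reached 19.3 on the T3 arrays and 29.9 on the untreated arrays.

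Of the 6 scaffolds and priming factors of the active zone kept, 5 fell and 1 rose at 48 h over 6 h. Rims1, the scaffold that links Rab3 on the vesicle to the active zone, was at 59.4, 9.0, 94.7 and 7.6 on the T3 arrays of 6, 16, 24 and 48 h, against 71.2, 11.7, 225 and 12.1 on the untreated arrays. It rose by 3.83 ± 0.30 at 24 h over 16 h (adjusted p = 0.00615), and by 3.42 without the untreated 24 h array. Its mean log2 signal of 4.96 was barely above the filter at 4.95, and all arrays of 16 and 48 h lay below the filter, so the size of this fold rests on dim signals. Also lower at 48 h than at 6 h were Rims2 (-3.38 ± 0.20), the scaffold Pclo, or piccolo (-3.23 ± 0.37), Cadps (-3.24 ± 0.39) and Cadps2 (-2.89 ± 0.38). Cadps2, a factor that primes dense-core vesicles and is known in granule cells for neurotrophin release, was at 719, 245, 669 and 115 on the T3 arrays, against 854, 251, 1947 and 97.4 on the untreated arrays. The untreated 24 h array held by far its highest signal.

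Unc13b, a Munc13 protein that opens syntaxin for priming, ran the other way. Its signal was 26.2, 65.5, 61.6 and 45.3 on the T3 arrays, against 28.3, 105, 106 and 71.4 on the untreated arrays. Both arrays of 6 h were the lowest. It rose by 1.61 ± 0.23 at 16 h over 6 h (adjusted p = 0.003) and was still 1.06 ± 0.23 above 6 h at 48 h (adjusted p = 0.00811). Both signals of 6 h lay below the filter's signal, so the size of these folds rests on dim signals. A second probe-set of Unc13b, too dim to be kept, was at 5.6, 4.2, 6.1 and 3.7 on the T3 arrays. On the untreated arrays that probe-set was at 6.6, 8.4, 4.7 and 4.6. It was lower at 48 h than at 6 h under both treatments, but signals this dim cannot test the rise. Unc13a, the Munc13 protein of most glutamatergic synapses, did not pass the filter (5.7 to 32.9 over all arrays), nor did the scaffold Bsn (9.2 to 85.4).

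Of the 2 vesicular glutamate transporters listed, Slc17a6 (VGLUT2), which young granule cells use, was high at 6 h and dim at 48 h. It was at 362, 81.5, 188 and 13.9 on the T3 arrays of 6, 16, 24 and 48 h, against 521, 73.4, 303 and 7.8 on the untreated arrays. It fell by 5.38 ± 0.36 at 48 h over 6 h (adjusted p = 9.5e-05), a fold that is set against signals of 48 h below the filter (4.95 on the log2 scale). A second probe-set kept also fell over that span (-5.61 ± 0.97, adjusted p = 0.00286), to 11.9 with T3 and 0.8 untreated. It did not pass at 16 h over 6 h (-1.8 ± 0.97, adjusted p = 0.2) or 24 h over 16 h (1.87 ± 0.97, adjusted p = 0.224). Slc17a7 (VGLUT1), which replaces Slc17a6 in mature granule cells, stayed between 5.7 and 11.6 on the T3 arrays and between 5.9 and 8.2 on the untreated arrays, below the filter. Snap91, the clathrin assembly protein AP180 that helps to retrieve vesicles, fell by only 1.00 ± 0.17 at 48 h over 6 h (adjusted p = 0.00254). A range over 10-fold was found in 15 of the 31 genes and in 3.57% of all probe-sets, and in 11 of these 15 the lowest array was below the filter's signal.

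**Figure D2:**
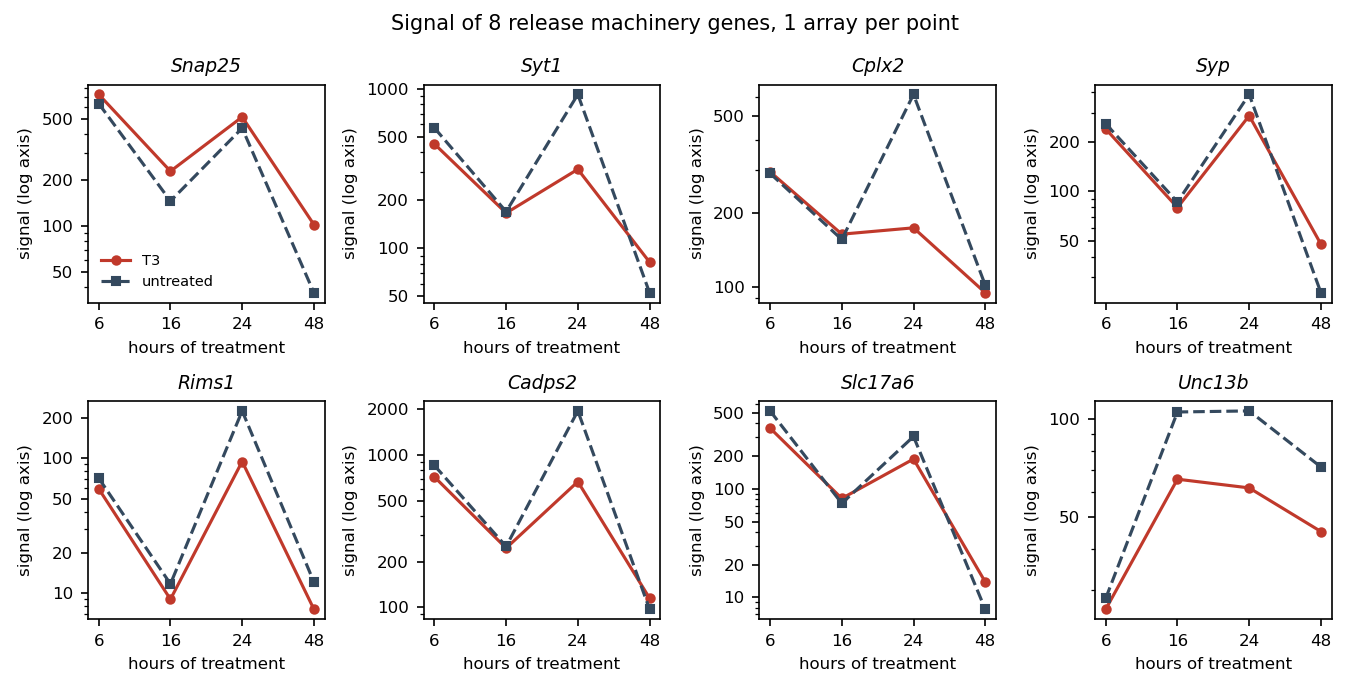
Signal of 8 release machinery genes (log axis) against hours of treatment, with T3 in red and untreated in dark blue, 1 array per point. All but Unc13b dip at 16 and 48 h, and for Syt1, Cplx2, Rims1 and Cadps2 the untreated point at 24 h lies far above the T3 point.

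Lists of cell type markers gave the setting of these swings. In these bulk cultures, fewer cells of a type and less RNA per cell cannot be told apart. All 12 pan-neuronal markers (Tubb3, Map2, Dcx and others) were kept, and 11 had all arrays of 6 and 24 h above all arrays of 16 and 48 h. Their summed signal ran between 1864 and 9055 on the T3 arrays and between 1201 and 13857 on the untreated arrays. Of these markers, 10 fell at 16 h over 6 h, 9 rose at 24 h over 16 h, and 12 fell at 48 h over 24 h. The median changes were -1.61, 1.84 and -2.69, beside -1.31, 1.63 and -2.56 for the release genes. Markers of single neuron types were less uniform in the alternation of time points. All arrays of 6 and 24 h lay above all of 16 and 48 h in 2 of 9 granule cell precursor markers kept. This held for 3 of 5 differentiated granule neuron, 2 of 5 Purkinje, 0 of 2 GABAergic and 0 of 2 unipolar brush and nuclear neuron markers. At 48 h over 6 h, however, 9 of 9 granule cell precursor, 5 of 5 differentiated granule neuron and 2 of 2 GABAergic markers fell. So did 12 of 12 pan-neuronal markers, where 26.2% of all probe-sets fell. Of 5 Purkinje markers, 3 fell and 2 rose, and 1 of 2 unipolar brush and nuclear neuron markers fell. The 7 meningeal fibroblast and mural markers summed to between 1135 and 12601 on the T3 arrays and between 1819 and 12773 on the untreated arrays, lowest at 6 h and highest at 48 h. The microglia markers, 5 of 7 kept, summed to between 109 and 1383 on the T3 arrays and between 139 and 1060 on the untreated arrays, lowest at 24 h and highest at 48 h. No marker of these lists was at or below 1. Their part in the changes of the release genes was not tested.

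**Figure D3:**
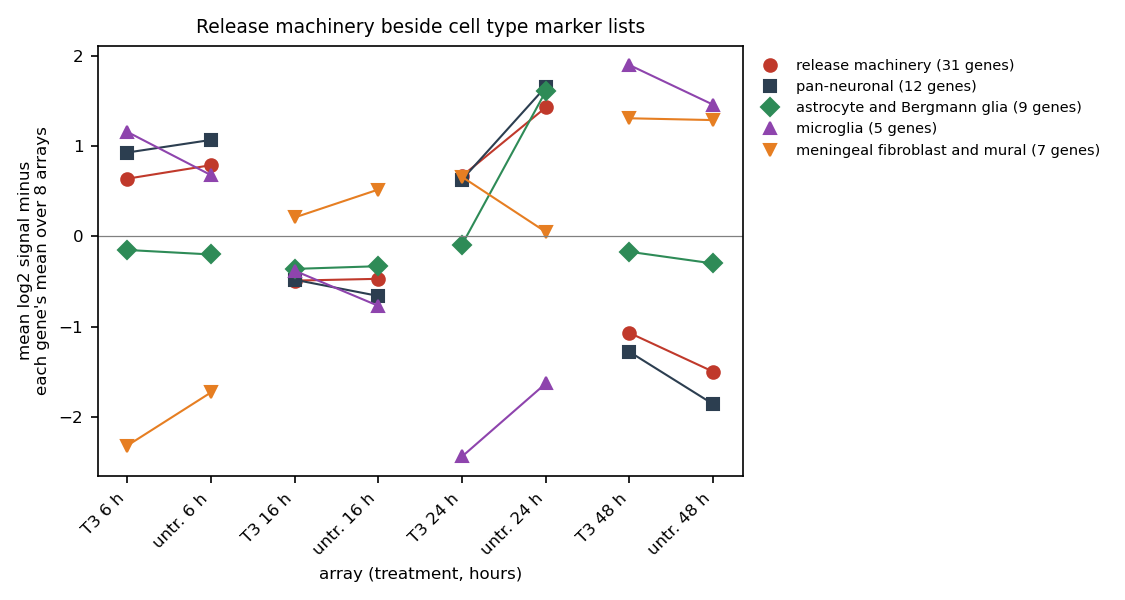
Mean log2 signal of the release machinery genes and of 4 lists of cell type markers on each array, minus the mean of each gene over the 8 arrays (T3 left of untreated at each time point). The release genes lie at 0.64, -0.49, 0.67 and -1.07 on the T3 arrays of 6, 16, 24 and 48 h, and at 0.79, -0.47, 1.43 and -1.50 on the untreated arrays, close to the pan-neuronal markers.

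Other genes of the same pathway were less uniform. Of 35 further fusion and release genes kept, 14 rose and 10 fell at 48 h over 6 h, where 23.1% of all probe-sets rose and 26.2% fell. Those with the smallest p among the ones that rose were Stxbp2 (3.08 ± 0.20), Vamp8 (2.19 ± 0.20) and Rab3il1 (2.64 ± 0.25). Stxbp2 and Vamp8 serve secretion in blood and epithelial cells, and Rab3il1 activates Rab proteins. Ppfia2, an active zone liprin, fell by 4.16 ± 0.36. Of 23 vesicle endocytosis genes, none rose and 6 fell, a share of falls close to that of all probe-sets, with Sh3gl2 (endophilin A1, -3.13 ± 0.19) and Amph (amphiphysin, -2.47 ± 0.31) among them. Of 13 subunits of the vesicle proton pump, 5 rose and 2 fell, and their median was 0.20.

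The promoters were read from RefSeq (GRCm38.p6), as 250 bases before and 50 after each start site. A window was given for 30 of the 39 genes, 24 of them among the 31 kept. They show what the sequence holds in front of genes that moved together, and in front of Unc13b, which did not move with them. Capitals mark AGGTCA (the core site of thyroid hormone receptors), TGACGTCA (the cAMP response element), TCAGCACC (the left part of the element bound by REST, a repressor of neuronal genes) and GGGCGG (the GC box), on either strand.
Syt1, chr10:109009062-109009361, minus strand: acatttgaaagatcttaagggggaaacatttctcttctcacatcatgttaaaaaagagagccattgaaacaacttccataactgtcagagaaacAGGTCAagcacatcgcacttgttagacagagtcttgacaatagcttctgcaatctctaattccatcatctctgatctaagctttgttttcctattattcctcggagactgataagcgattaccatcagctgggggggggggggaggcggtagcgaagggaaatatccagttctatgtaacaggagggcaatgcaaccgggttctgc
Slc17a6, chr7:51621580-51621879, plus strand: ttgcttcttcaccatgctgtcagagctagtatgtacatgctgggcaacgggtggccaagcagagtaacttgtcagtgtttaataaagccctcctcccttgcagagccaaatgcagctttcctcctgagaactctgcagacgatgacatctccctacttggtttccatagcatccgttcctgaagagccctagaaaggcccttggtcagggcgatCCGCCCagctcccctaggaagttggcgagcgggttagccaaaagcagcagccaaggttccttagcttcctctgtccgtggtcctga
Syn1, chrX:20920869-20921168, minus strand: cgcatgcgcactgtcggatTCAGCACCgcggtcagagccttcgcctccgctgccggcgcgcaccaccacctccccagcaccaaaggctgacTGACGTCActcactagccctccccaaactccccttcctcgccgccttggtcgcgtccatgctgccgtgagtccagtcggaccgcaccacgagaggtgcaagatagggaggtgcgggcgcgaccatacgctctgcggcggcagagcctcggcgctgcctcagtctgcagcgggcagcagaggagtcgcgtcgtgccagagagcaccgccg
Unc13b, chr4:43058703-43059002, plus strand: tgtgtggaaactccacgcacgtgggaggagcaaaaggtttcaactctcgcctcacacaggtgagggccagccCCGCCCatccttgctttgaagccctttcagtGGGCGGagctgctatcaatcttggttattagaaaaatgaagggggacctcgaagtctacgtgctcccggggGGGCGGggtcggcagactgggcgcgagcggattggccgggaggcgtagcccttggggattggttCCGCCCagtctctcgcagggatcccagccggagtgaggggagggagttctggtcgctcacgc
The Syt1 window, 1 of 2 given for this gene, was picked because it holds AGGTCA. The Slc17a6 window, also 1 of 2, was picked by the number of these strings it holds. Syn1 holds TGACGTCA and TCAGCACC, and Unc13b holds the GC box in 4 places.

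Over all windows of a gene and both strands, GGGCGG was found in 24 of the 30 genes (80.0%) and in 38.2% of 27025 genes with a window. AGGTCA was found in 3 (Snap47, Syt1 and Syngr1), or 10.0%, against 18.1% of all genes. TGACGTCA was found in 1 (2.03% of all genes), and TCAGCACC in 2, Syn1 and Unc13a (1.85%). Of 3 further strings, TGACG, which is part of TGACGTCA, was found in 7 (23.0%), GGACAG, the right part of the REST element, in 9 (24.7%), and CAGCTG, an E-box, in 8 (18.3%). A match is a string of letters and not a measured binding site.

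Whether T3 changed the release genes was asked over the 4 pairs of arrays. None of the 31 genes passed the limma test at an adjusted p of 0.05, and none of all 18015 probe-sets did (0.0%), with 985 at an unadjusted p under 0.05. The T3 target Klf9 did not pass it either (1.04 ± 0.13, adjusted p = 0.306), nor did Dbp (1.33 ± 0.12, adjusted p = 0.154). The paper counts Dbp as a direct T3 target too. A gene that does not pass this test may therefore still respond to T3. The smallest adjusted p among the 31 genes was 0.815, and 4 genes had an unadjusted p under 0.05. These were Snap25, with a difference of 0.64 ± 0.21, Snap47 (-0.27 ± 0.07), Rims1 (-0.64 ± 0.21) and Unc13b (-0.56 ± 0.17). The median difference was -0.12, with 8 genes above 0 and 23 below. It was 0.05 without the untreated 24 h array. A T3 difference that changed with the log2 of the hours was not found in any gene (0.0% of all probe-sets, 245 at an unadjusted p under 0.05, none of them among the 31).

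At single time points 1 array is set against 1 array, without a test. At 6 h and at 16 h no release gene differed by more than 2-fold, as did 0.855% and 0.738% of all probe-sets in either direction. At 24 h, 9 genes were more than 2-fold lower with T3 (5.16% of all) and none more than 2-fold higher (3.67% of all). They were Cplx2, Syt1, Syt11, Sv2a, Sv2b, Syn3, Rab3c, Rims1 and Cadps2. Syn3 was at 66.0 on the T3 array, against 299 on the untreated array, a log2 difference of -2.18. Rab3c was at 61.8 with T3, against 189 untreated, but its second probe-set kept gave 0.68 where the brightest gave -1.62. Other probe-sets kept stayed within 2-fold for Sv2b (-0.36, against -1.38) and Syt11 (-0.24 to -0.93, against -1.02). For Cplx2 they gave -0.86 and -1.39, against -1.81. At this time point all 12 pan-neuronal markers were lower with T3, 7 of them by more than 2-fold, and 6 of 9 astrocyte and Bergmann glia markers were more than 2-fold lower. The summed signal of the 10 glial markers was 4951 on the T3 array, against 9639 on the untreated array. Their part in the T3 difference was not tested.

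At 48 h, 4 genes were more than 2-fold higher with T3 (0.833% of all) and none more than 2-fold lower (0.344% of all). The first count was 2 with quantile normalization or median centring and 0 with 32 added to each signal. The 4 were Snap25 (1.48), Synpr (1.32), Pclo (1.07) and Sv2b (1.01, log2). Synpr was at 28.4 with T3, against 11.4 untreated, and Pclo at 34.0 with T3, against 16.2 untreated. For all 4 genes the arrays of 48 h were the 2 lowest of the 8. The second probe-set of Sv2b that was kept gave 0.10. The median over the 31 genes was 0.34 at 48 h, with 23 above 0, where it was -0.16, -0.03 and -0.78 at 6, 16 and 24 h. Of the pan-neuronal markers, 10 of 12 were higher with T3 at 48 h and 3 by more than 2-fold.

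**Figure D4:**
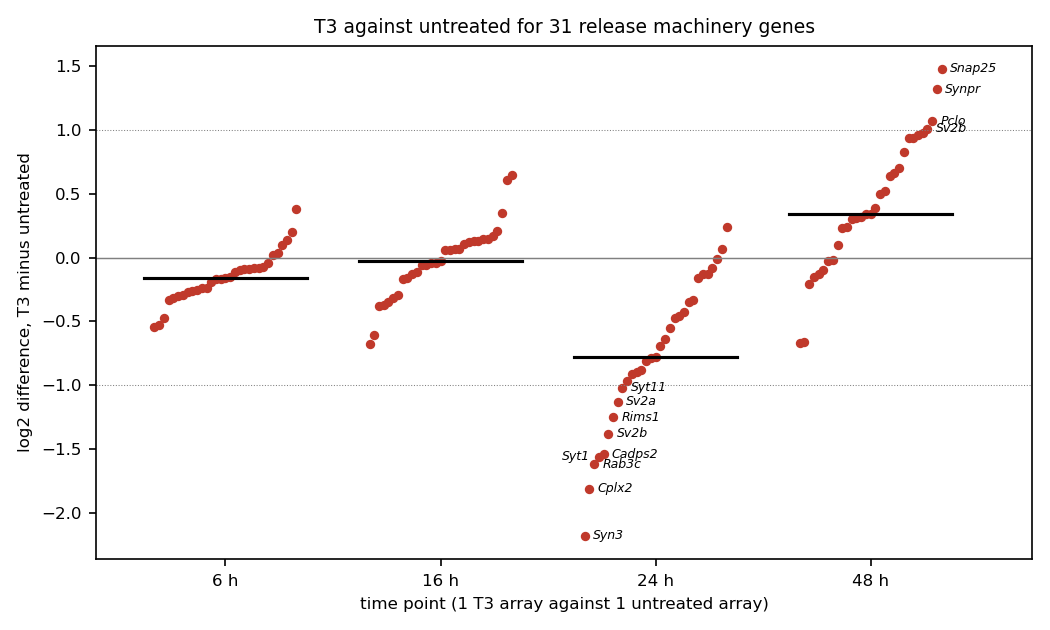
Log2 difference between the T3 array and the untreated array of each time point for the 31 release machinery genes (points, sorted within a time point), with the median as a bar and 2-fold as dotted lines. Points lie near 0 at 6 and 16 h, mostly below it at 24 h, with Syn3 at -2.18, and mostly above it at 48 h, with Snap25 at 1.48.

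Snap25 was the 1 gene of the 31 that was above its untreated array at all 4 time points (8.25% of all probe-sets were). The differences were 0.20, 0.65, 0.24 and 1.48 at 6, 16, 24 and 48 h. At 24 h only Snap25 and Syt4 (0.07) were above 0. The second probe-set of Snap25, which was too dim to be kept, had signals of 32.2, 13.6, 32.9 and 14.3 on the T3 arrays, against 24.3, 12.2, 27.0 and 10.3 on the untreated arrays. It too was higher with T3 at each time point, by 0.41, 0.16, 0.29 and 0.47. Genes below their untreated array at all 4 time points numbered 5 (6.82% of all), namely Snap47, Nsf, Dnajc5, Rims1 and Unc13b by their brightest probe-sets. Other probe-sets kept went against this for Dnajc5 (one was above untreated at all 4, by 0.52, 0.27, 1.03 and 0.50) and for Nsf (one was above at 6, 16 and 48 h, by 0.26, 0.34 and 0.18). For Unc13b the differences were -0.11, -0.68, -0.78 and -0.66. A second, dimmer probe-set of Rims1 gave 1.5 at 48 h, where the brightest gave -0.67.

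Among the 8 genes below the filter, some ratios between arrays rest on signals of a few units. Syt5, at 11.1 with T3 and 2.2 untreated, gave 2.33 at 16 h. Doc2b, at 3.7 with T3 and 10.3 untreated, gave -1.48 at 48 h. Bsn was brighter at 24 h, at 27.3 with T3 and 85.4 untreated, and gave -1.65.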

How the data were processed

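The deposited table holds 1 signal intensity per probe-set and array, made by the authors from Affymetrix mouse arrays with GCOS and MAS5 (submitters' processing notes, versions not given in the sources used here) and scaled to a common mean. The mean without the top and bottom 2% was 100.0 on each array. Of 45101 probe-sets, 64 controls were left out. Of the rest, 34945 had 1 gene symbol, 932 several and 9160 none. Columns unused numbered 0. Detection calls, fold changes, Q-RT-PCR and other models of the study were not used here.

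Signals under 1 were set to 1 and taken as log2. Probe-sets with a mean log2 signal at or above the 60th percentile (4.95, a signal of 31.0) were kept. A gene was represented by its brightest probe-set, and all members were named. Fits used limma 3.58.1 in R 4.3.3 (Python 3.11.15 for tables) on log2 signals, with 4 time points and T3 as terms, a variance trend, and Benjamini-Hochberg adjustment over 18015 probe-sets at 0.05. SE is the moderated standard error. The residual degrees of freedom were 3, with 4.44 prior. A change of the T3 difference with hours was fitted on the 4 paired differences. The fits were tested on simulated data with independent noise and no cell batches. That test does not cover batches or an outlying array. The number of arrays limits the precision.

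The methods pair arrays by cell batch. Deviations of paired arrays correlated at 0.905, 0.713, 0.52 and 0.878 for 6, 16, 24 and 48 h. Members and gene lists were chosen with earlier results of these data known. Pathway genes are named at most 3 per direction, by smallest p. Of the markers fixed for other cell types (granule cell precursors and neurons, GABAergic, Purkinje, unipolar brush, oligodendrocyte, endothelial and red blood cells), values are used only where given. Alternatives were quantile normalization, median centring, 32 added to signals, other filters, no variance trend, no block, the mean of a gene's probe-sets, other fold thresholds, and leaving out each time point or the untreated 24 h array.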

Additional observations from a re-analysis of the deposited data

How the results depend on the processing

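The counts of release genes called over time depended on the filter, and the genes tested changed with it. With no filter on dim probe-sets, 39 genes were tested, and the rise at 24 h over 16 h was called in 0 (smallest adjusted p = 0.0542) and the fall at 16 h over 6 h in 8. With a filter at the 75th percentile, 20 genes were tested, and the difference among time points was called in 17, the fall at 16 h over 6 h in 13, the rise at 24 h over 16 h in 13, the fall at 48 h over 24 h in 17 and the fall at 48 h over 6 h in 16. With the mean of the probe-sets of a gene, 18 genes were tested, and these counts were 17, 10, 10, 15 and 15. Leaving out the untreated 24 h array, an alternative chosen after seeing the data, leaves 1 array at 24 h. Steps at 24 h then have no spread of their own, so their calls are not given. Leaving out 1 time point in turn gave 14 to 22 calls of the rise at 24 h over 16 h, the lowest without the 6 h arrays. The median T3 difference, -0.12, was 0.05 without the untreated 24 h array, and ran between -0.32 and 0.05 when 1 time point was left out, the only settings with another sign being those 2 without that array. No release gene was called for T3 or for a T3 difference that changes with hours under any setting run. The counts beyond 2-fold moved with the threshold and the scaling. At 24 h, 17 genes were lower with T3 at 1.6-fold, 3 at 3-fold, 4 with the 75th percentile and 3 with the mean of probe-sets, which also put 1 higher. At 48 h, 10 genes were higher with T3 at 1.6-fold, 0 at 3-fold, 2 with quantile normalization, median centring or the 75th percentile, and 0 with 32 added to each signal; with no filter 3 were more than 2-fold lower. At 6 h, 1 gene went beyond 2-fold with the mean of probe-sets. At 16 h, 2 did with no filter and 1 beyond 1.6-fold. Of 99 time changes called in single genes, none reversed under any setting in which the gene was tested. However, 98 of 909 values no longer passed, 46 of them with no filter. These totals include the setting without the untreated 24 h array, where steps at 24 h have no spread of their own. The cause of these shifts was not tested. With 1 array per condition, no setting gives a spread between replicates. Pairing entered through the block for the time point and through the 4 paired differences fitted on hours.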
